A study of Mus musculus with 2 samples.

Results

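Adhesion receptors that bring T cells to the gut and hold them there were examined in Treg cells of the colon lamina propria, the tissue layer beneath the gut lining. Treg cells are suppressive CD4 T cells whose identity is set by the factor Foxp3. The set holds 9 genes, taken by name from the 55246 loci of the deposited table: 8 integrin subunits (Itgae, Itgb7, Itga4, Itgb1, Itgb8, Itgav, Itgal and Itgb2) and Cd44. They were chosen by name and not by their values, but with results of these data known. All 9 had enough reads to be compared, as did 17363 loci in all.

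The series has 2 RNA sequencing libraries from female mice. The WT library came from Treg cells with wild-type Foxp3, and the Exon2KO library from Treg cells whose Foxp3 lacks exon 2, the allele called Foxp3Δ2 in the title of the series. The labels give no age, strain or sorting scheme, and do not say whether a library held 1 mouse or a pool. Each genotype has 1 library, so the spread between samples is unknown, no difference below has a replicate check, and each interval is a 95% interval that covers counting error only.

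The WT library held 16281133 reads in genes and the Exon2KO library 15412425. The T cell genes Cd4 and Cd3e were present in both libraries, at 72.2 and 80.1 FPKM in WT and 83.7 and 81.1 in Exon2KO (reads relative to gene length and sequencing depth, as deposited). Both are among the 3 genes of the 15-gene T cell list with a log2 ratio of Exon2KO over WT above 0. The other 12 were below 0, among them Cd3d (-0.25), Trac (-0.44), Cd2 (-0.77) and Cd5 (-1.05). Foxp3 was at 111 FPKM in WT and 330.0 in Exon2KO. The other genes of the Treg list went both ways in Exon2KO relative to WT, with log2 ratios of -4.29 for Ikzf2, -1.59 for Tnfrsf18, -1.37 for Tnfrsf4, -0.35 for Il2ra, 0.43 for Icos and 0.71 for Ctla4. The Foxp3 value does not check the genotype, because reads were counted over the whole gene. Immunoglobulin genes took 6.49% (WT) and 5.93% (Exon2KO) of all reads, so neither library was made of T cell RNA alone.

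Integrins are receptors of 1 alpha and 1 beta chain that grip other cells and matrix, and each chain can have several partners. The pair of Itga4 and Itgb7 binds the addressin Madcam1 on gut venules and brings lymphocytes into the intestine, while the pair of Itgae (the CD103 antigen) and Itgb7 binds E-cadherin on epithelial cells and is known for keeping T cells close to the epithelium. The pair of Itgav and Itgb8 frees active TGF-beta from its latent complex, and effector Treg cells are known to use it. Itgal and Itgb2 form LFA-1, which binds Icam1, and Cd44 is a receptor for hyaluronan that marks T cells that have met antigen.

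The beta chains of the set differ at their cytoplasmic ends, which are shown because the beta chain gene called lower below stands apart from the other 3 there. That choice was made with the ratios known, and any link between these ends and transcript level was not tested. The last 50 codons of each are given 5′ to 3′ on the coding strand (GRCm38, GENCODE M21 transcripts), with capitals on each in-frame NPxY or NPxF motif, the asparagine-proline sequence that talin and kindlin bind when they activate integrins.
Itgb7 (chr15:102216160-102216513, minus strand): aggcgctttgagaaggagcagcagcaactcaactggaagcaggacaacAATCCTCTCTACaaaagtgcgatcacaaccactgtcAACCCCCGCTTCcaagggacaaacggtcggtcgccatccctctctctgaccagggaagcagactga
Itgb1 (chr8:128726103-128732088, plus strand): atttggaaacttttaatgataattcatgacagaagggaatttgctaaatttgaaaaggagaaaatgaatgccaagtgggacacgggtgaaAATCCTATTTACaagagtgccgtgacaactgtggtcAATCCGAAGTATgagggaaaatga
Itgb2 (chr10:77564718-77565240, plus strand): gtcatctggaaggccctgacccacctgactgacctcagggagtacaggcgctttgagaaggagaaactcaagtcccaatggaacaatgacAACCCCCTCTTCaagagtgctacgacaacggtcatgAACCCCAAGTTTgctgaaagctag
Itgb8 (chr12:119163117-119163363, minus strand): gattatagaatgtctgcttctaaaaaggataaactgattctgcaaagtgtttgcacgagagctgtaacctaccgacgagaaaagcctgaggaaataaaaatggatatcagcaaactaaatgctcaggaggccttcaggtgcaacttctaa
Each of the first 3 ends holds 2 such motifs, and the Itgb8 end holds 0. Each span is longer than the 150 bases printed because it includes intron. Over the last 50 codons of 21635 protein-coding genes, 0.781% held at least 1 motif of this form in frame and 0.0277% held 2 or more. A missing match says only that this pattern is not in this stretch.

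The alpha chains of the 2 pairs that the results turn on carry the GFFKR motif next to the membrane, in capitals, and are given from that motif to the stop codon.
Itgae (chr11:73147054-73147140, plus strand): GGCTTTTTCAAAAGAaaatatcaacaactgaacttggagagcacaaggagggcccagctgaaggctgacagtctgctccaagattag
Itgav (chr2:83803243-83803335, plus strand): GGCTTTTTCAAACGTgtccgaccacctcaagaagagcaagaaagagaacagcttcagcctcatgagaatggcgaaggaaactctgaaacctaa
Both alpha chains hold this motif, which 0.0416% of the same genes hold in their last 50 codons.

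In the Exon2KO library Itgae and Itgb8 were lower by 6.25-fold and 7.72-fold, while the chains they pair with, Itgb7 and Itgav, were each lower by under 1.3-fold. The other 5 genes also stayed within 1.4-fold. A gene was called lower or higher when its ratio, after scaling the libraries by TMM factors and adding a prior count of 2, was at least 2-fold. By that rule 2 of the 9 genes were called lower and 0 higher. Of all genes compared, 8.14% were called lower and 9.38% higher. The plot of log2 ratios against mean level places Itgae and Itgb8 apart from the other 7 genes.

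**Figure D1:**
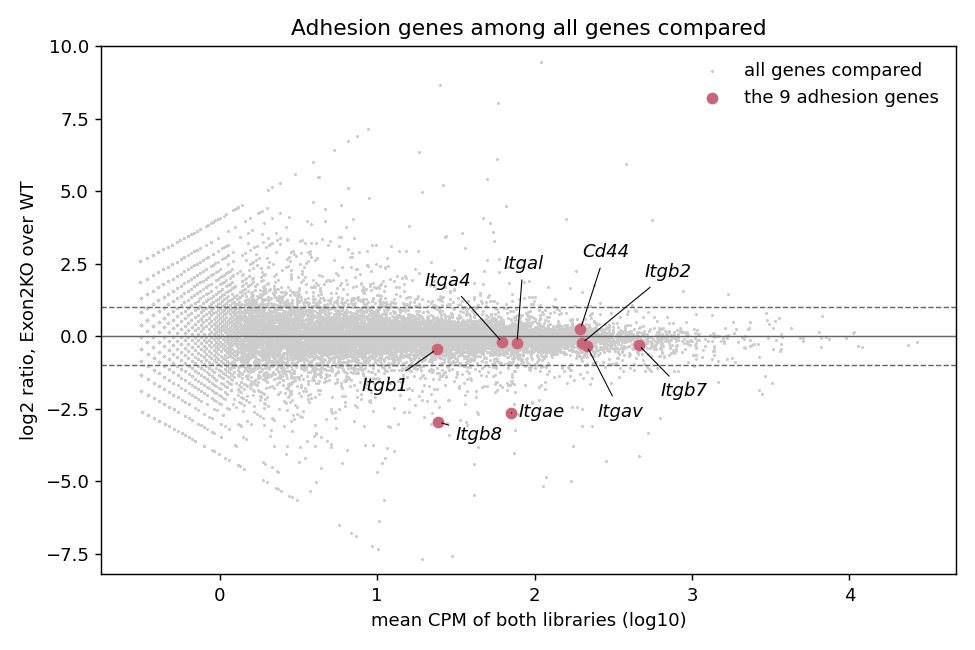
Log2 ratio of Exon2KO over WT (vertical axis) against the mean CPM of both libraries (horizontal axis, log10) for the 17363 genes compared, in grey, and the 9 adhesion genes, in red; dashed lines mark a 2-fold ratio. Itgae and Itgb8 lie at log2 ratios of -2.64 and -2.95, and the other 7 genes lie between the dashed lines.

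Itgae (ENSMUSG00000005947, chromosome 11, 73090583 to 73147446, plus strand, mm10), which encodes the alpha chain CD103, had 1926 WT reads and 312 Exon2KO reads. On the FPKM scale its level was 26.7 in WT (95% interval 25.5 to 27.9) and 4.28 in Exon2KO (3.82 to 4.78). The intervals do not overlap, and the Exon2KO library held 16.0% of the WT level. The log2 ratio was -2.64 (-2.83 to -2.48), and 1.22% of all genes compared had a lower ratio. Haspin, a kinase gene on the opposite strand within the span of Itgae, shares 0 exonic bases with it and had 26 and 46 reads in WT and Exon2KO, a log2 ratio of 0.75 (0.07 to 1.55).

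Itgb7 (ENSMUSG00000001281, chromosome 15, 102215995 to 102231944, minus strand), the beta chain shared by the epithelial and the venule receptor, had the highest level per length of the 9 genes in both libraries. It had 7954 reads in WT and 6567 in Exon2KO, which correspond to 182 and 149 FPKM. The log2 ratio was -0.30 (-0.35 to -0.26). The beta chain was therefore 1.23-fold lower, against 6.25-fold for its partner Itgae.

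Itga4 (ENSMUSG00000027009, chromosome 2, 79255426 to 79333123, plus strand) encodes the alpha chain of the venule receptor and, with Itgb1, of a receptor for Vcam1. It had 1048 reads in WT and 925 in Exon2KO, and its level went from 4.75 to 4.16 FPKM, a log2 ratio of -0.21 (-0.34 to -0.08). Its interval overlapped those of Itgal and Itgb2. Cerkl, on the opposite strand, shares 1124 exonic bases with Itga4 and had 51 reads in each library. The use of strand in counting is not given in the sources used here, so reads in the shared sequence are uncertain.

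Itgb1 (ENSMUSG00000025809, chromosome 8, 128685654 to 128733200, plus strand), the beta chain of many matrix receptors, had 433 reads in WT and 323 in Exon2KO. Its level was 6.73 FPKM in WT (6.11 to 7.39) and 4.97 in Exon2KO (4.45 to 5.55), intervals that do not overlap. The log2 ratio was -0.45 (-0.66 to -0.24), the lowest of the 7 genes within 2-fold.

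Itgb8 (ENSMUSG00000025321, chromosome 12, 119158022 to 119238802, minus strand), the beta chain that gives its integrin the ability to free TGF-beta, had 680 WT reads and 88 Exon2KO reads. Its level was 3.90 FPKM in WT (3.61 to 4.20) and 0.50 in Exon2KO (0.401 to 0.616), so that it was the lowest of the 9 genes in both libraries. The log2 ratio was -2.95 (-3.31 to -2.65), and the Exon2KO library held 13.0% of the WT level. Of all genes compared, 0.904% had a lower ratio.

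Itgav (ENSMUSG00000027087, chromosome 2, 83724397 to 83806916, plus strand), the partner of Itgb8 and of several other beta chains, had 3755 reads in WT and 3038 in Exon2KO. These correspond to 22.2 and 17.8 FPKM, a log2 ratio of -0.33 (-0.40 to -0.26). Gm13684 on the opposite strand shares 634 exonic bases with Itgav and had 310 and 286 reads, a log2 ratio of -0.14 (-0.38 to 0.09). Reads in that stretch are uncertain for the same reason as for Itga4.

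The chains of LFA-1, the general leukocyte receptor for Icam1, were close to each other in ratio. Itgal (ENSMUSG00000030830, chromosome 7, 127296260 to 127335138, plus strand) had 1310 and 1141 reads in WT and Exon2KO, or 12.6 and 10.9 FPKM, a log2 ratio of -0.23 (-0.34 to -0.11). Itgb2 (ENSMUSG00000000290, chromosome 10, 77530252 to 77565708, plus strand) had 3400 and 2938 reads, or 70.6 and 60.5 FPKM, a log2 ratio of -0.24 (-0.31 to -0.17). Cd44 (ENSMUSG00000005087, chromosome 2, 102811141 to 102901665, minus strand) was the 1 gene of the set with a higher level in the Exon2KO library. It had 2816 reads in WT and 3379 in Exon2KO, or 26.4 and 31.3 FPKM, a log2 ratio of 0.24 (0.16 to 0.31).

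Per length, the order of the 9 genes in WT ran from Itgb7 through Itgb2, Itgae, Cd44, Itgav, Itgal, Itgb1 and Itga4 to Itgb8. Itgae at 26.7 FPKM and Cd44 at 26.4 were not separable there by counting error, with intervals of 25.5 to 27.9 and 25.4 to 27.3. In the Exon2KO library Itgae came after Itgb1 in that order, at the seventh place instead of the third, and its interval of 3.82 to 4.78 FPKM overlapped those of Itgb1 (4.45 to 5.55) and Itga4 (3.90 to 4.44). The 5 neighbouring levels from Itgb7 to Itgal did not overlap in the Exon2KO library. Apart from Itgae, the genes kept their places relative to each other in both libraries.

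**Figure D2:**
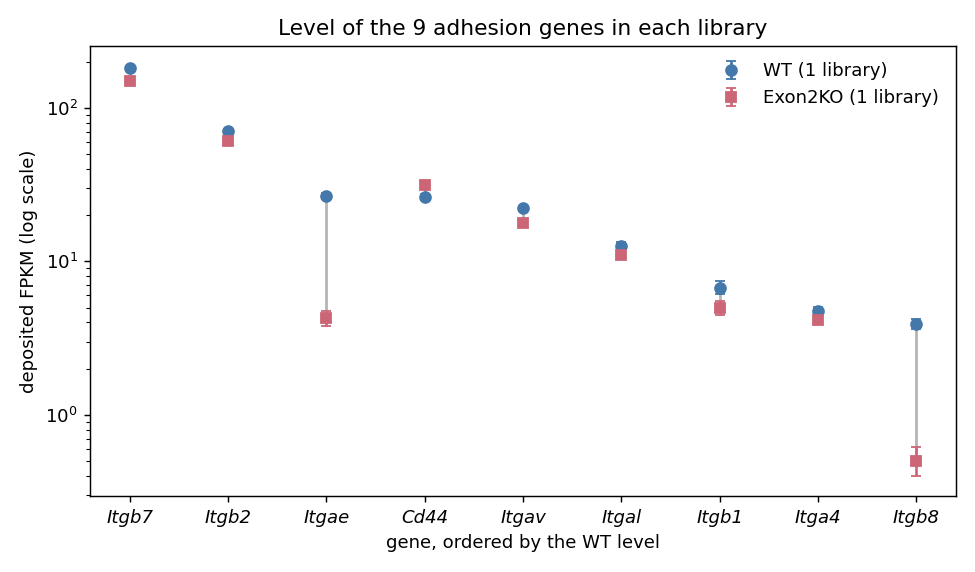
Level of each of the 9 genes (deposited FPKM, log scale) in the WT library (blue circles) and the Exon2KO library (red squares), with 95% Poisson intervals of the reads; grey lines join the 2 libraries. Itgae (26.7 to 4.28 FPKM) and Itgb8 (3.90 to 0.50) have the long grey lines, and the other 7 genes have near-overlapping symbols.

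A ratio of 2 genes within a library does not depend on how the libraries are scaled, so the partners were also set against each other as reads per length, for 8 pairs of genes. For each 100 of Itgb7 there were 14.6 of Itgae in WT and 2.87 in Exon2KO, a log2 change of -2.35 (-2.53 to -2.17). Itga4, the other alpha chain that pairs with Itgb7, stood at 2.61 per 100 of Itgb7 in WT and 2.79 in Exon2KO, a log2 change of 0.10 (-0.04 to 0.23), an interval that includes 0. The alpha chain transcripts that can pair with Itgb7 thus had a different composition in the 2 libraries: Itgae was at 561 per 100 of Itga4 in WT and at 103 in Exon2KO.

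For each 100 of Itgav there were 17.6 of Itgb8 in WT and 2.81 in Exon2KO, a log2 change of -2.64 (-2.97 to -2.32). Itgb1, which also pairs with Itgav, stood at 30.4 per 100 of Itgav in WT and 28.0 in Exon2KO, a log2 change of -0.12 (-0.34 to 0.10). Itgal stood at 17.9 and 18.0 per 100 of Itgb2, a log2 change of 0.01 (-0.12 to 0.15), an interval that includes 0 and covers counting error only. The ratio of Itga4 to Itgb1 was 70.7 and 83.6 per 100, with an interval of the log2 change of -0.0012 to 0.49, and that of Itgb1 to Itgb7 was 3.70 and 3.34 (-0.36 to 0.07). These are ratios of transcripts, and the surface level of each pair was not measured.

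**Figure D3:**
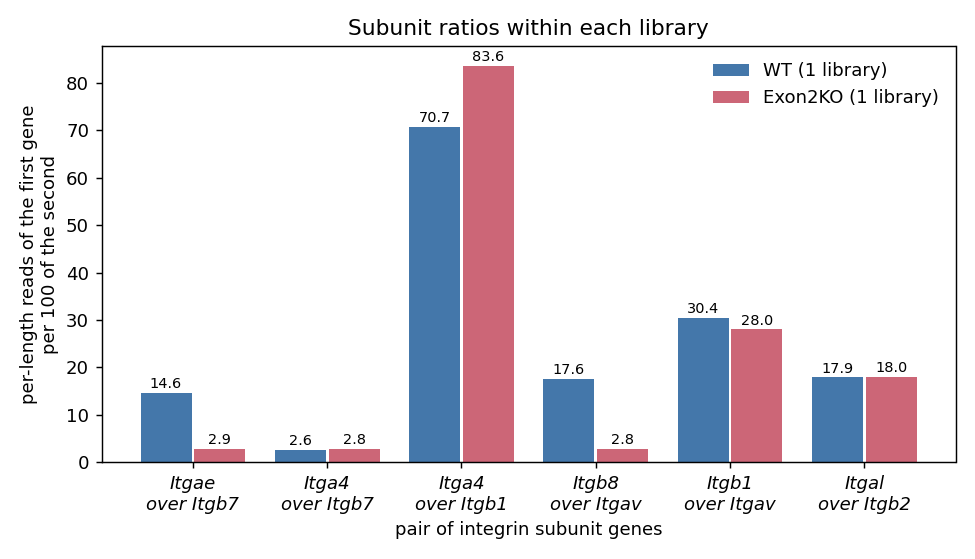
Reads per gene length of 1 integrin chain per 100 of its partner (vertical axis) for 6 pairs of genes, in the WT library (blue) and the Exon2KO library (red). The bars for Itgae over Itgb7 (14.6 and 2.87) and Itgb8 over Itgav (17.6 and 2.81) differ between the libraries, and the other 4 pairs of bars are within 1.2-fold of each other.

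Of the 9 genes, 8 had a log2 ratio below 0, with a median of -0.30, against a median of 0.0035 over all genes compared. The list of 15 T cell identity genes had a median of the same size, -0.30, with 12 of 15 below 0. When the libraries were scaled to set that list's median to 0, which raised the median of all genes to 0.30, the ratios of Itga4, Itgal and Itgb2 changed sign (0.09, 0.07 and 0.06), Itgb7 was at -0.0037 and Cd44 at 0.54, while Itgae and Itgb8 were still lower at -2.35 and -2.65. The small negative ratios of the integrins within 2-fold were close to those of the T cell genes in these libraries. In bulk RNA, fewer cells of a type and less RNA per cell cannot be told apart.

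The authors' deposited table gives log2 fold changes of -2.65 for Itgae and -2.98 for Itgb8, with adjusted p-values of 3.43e-07 and 3.26e-08. In the authors' deposited table the adjusted p-values of the other 7 genes lie between 0.852 and 1.0. With 1 library per genotype such a p-value rests on a spread that these libraries cannot measure. The unadjusted p-values of the authors' deposited table equal, within 0.1 on the log10 scale for 100% of the 17363 genes compared, those of edgeR's exact test when the relative spread between samples (the biological coefficient of variation) is assumed to be 0.2. The deposited p-values and that test are therefore 1 result and not 2. With an assumed 0.4 edgeR's exact test with Benjamini-Hochberg adjustment gave 0.152 for Itgae and 0.0824 for Itgb8.

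Among the 18 integrin subunit genes outside the set, 13 had enough reads, 1 was called higher and 1 lower, and the median log2 ratio was -0.02. For this list and each list below, the shares over all genes compared are 8.14% called lower and 9.38% higher. Itgb5, another beta partner of Itgav, was called higher, at 154 WT and 361 Exon2KO reads (2.75 and 6.39 FPKM) and a log2 ratio of 1.19 (0.93 to 1.48). Itgb5 thus exceeded Itgb8 per length in Exon2KO and was below it in WT. The gene called lower was Itgad, with 8 and 2 reads and an interval that includes 0 (-5.30 to 0.30). Itgb3, also a partner of Itgav, had 683 and 546 reads (-0.35, -0.51 to -0.19), and Itga6, a laminin receptor chain, had 461 and 462 (-0.02, -0.21 to 0.17).

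Genes that regulate integrins from inside the cell, activators and inhibitors alike, were all within 2-fold where they had enough reads. Of 26 adaptor genes, 25 had enough reads and 0 were called, with a median of -0.09 and a range of -0.70 to 0.51. Over all genes compared, 8.14% were called lower and 9.38% higher. The most abundant were Cytip, which binds the integrin regulator cytohesin, at 32366 and 39182 reads (0.25, 0.23 to 0.27), and Rap1b, a small GTPase that activates integrins, at 14124 and 15305 reads (0.09, 0.06 to 0.12).

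The latent TGF-beta list, on which the integrin of Itgav and Itgb8 acts, held 5 genes, of which 4 had enough reads and 2 were called lower. The share called lower over all genes compared was 8.14%. Lrrc32, which encodes GARP, the anchor of latent TGF-beta on Treg cells, had 2496 reads in WT and 526 in Exon2KO (33.8 and 7.05 FPKM), a log2 ratio of -2.27 (-2.41 to -2.14). Nrros, which encodes a related anchor, had 913 and 227 reads (13.9 and 3.42 FPKM), a log2 ratio of -2.02 (-2.25 to -1.82). Tgfb1, the cytokine itself, had 1714 and 1884 reads (0.11, 0.01 to 0.20), and Tgfb3 had 33 and 54 (0.65, 0.03 to 1.35). With total counts and with the T cell list at 0 (the scaling described above), Nrros was at -1.92 and -1.73 and Lrrc32 at -2.16 and -1.97. The beta chain Itgb8 and both anchors were thus called lower in the same library, and Tgfb1 was not called.

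Of the 12 ligand genes, 8 had enough reads, with 2 called higher and 2 lower and a median of -0.55. The shares over all genes compared were 9.38% higher and 8.14% lower. Fn1, which encodes the matrix ligand fibronectin, had 101 and 32 reads (-1.62, -2.31 to -1.10). Spp1, which encodes osteopontin, a ligand of Itgav and Itga4 integrins and of Cd44, had 69 and 13 (-2.27, -3.42 to -1.57). The ligands of LFA-1 were within 2-fold, with Icam1 at 6520 and 3971 reads (-0.74, -0.80 to -0.69) and Icam2 at 1195 and 829 (-0.55, -0.68 to -0.43). The genes called higher, Cdh1 (E-cadherin, the epithelial ligand of the Itgae integrin) with 13 and 30 reads and Has1 with 4 and 14, had few reads.

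Of 14 other genes of gut homing, egress and retention, 13 had enough reads, 2 were called lower and 1 higher, and the median was -0.59. The shares over all genes compared were 8.14% lower and 9.38% higher. S1pr1, the receptor that T cells use to leave tissue, had 1364 and 462 reads in WT and Exon2KO (-1.58, -1.74 to -1.44). Klf2, a transcription factor known to drive S1pr1, had 2157 and 1036 (-1.08, -1.19 to -0.98), and was not called with total counts (-0.98) or with the T cell list at 0 (-0.78). Ccr6, a chemokine receptor of mucosal T cells, had 1355 and 2833 (1.04, 0.94 to 1.13). Cd69, which opposes S1pr1 at the cell surface, had 10871 and 9170 reads (-0.27, -0.31 to -0.23), and the lymph node homing receptor Ccr7 had 13057 and 8082 (-0.72, -0.76 to -0.68). S1pr1, a gene of egress, and Itgae, a gene of epithelial retention, were thus both called lower in the same library.

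**Figure D4:**
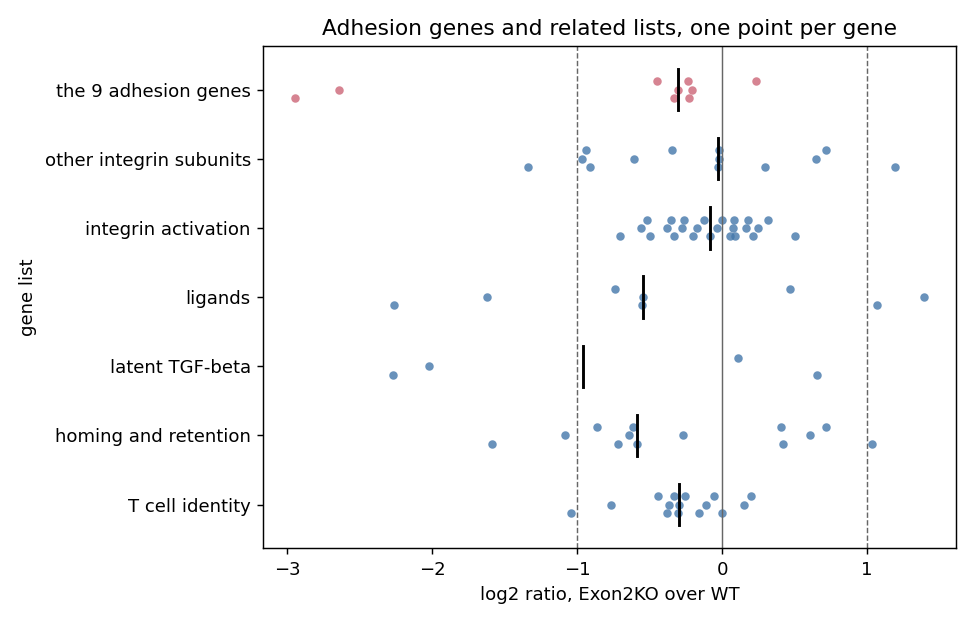
Log2 ratio of Exon2KO over WT (horizontal axis) for each gene with enough reads, by gene list (vertical axis), with 1 point per gene, a black bar at each list's median and dashed lines at a 2-fold ratio. The 9 adhesion genes, in red, form a group near their median of -0.30 and a pair at -2.64 (Itgae) and -2.95 (Itgb8).

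Cells other than Treg cells carry several of these genes, and their markers were read beside them as CPM, counts relative to the TMM-scaled library. Itgae is also known in CD8 T cells of the epithelium. Of 14 genes of CD8, natural killer and intraepithelial cells, 12 had enough reads, with 4 called lower and 2 higher. The shares over all genes compared were 8.14% lower and 9.38% higher. The granule genes Gzma (328 CPM in WT and 10.3 in Exon2KO) and Prf1 (5.54 and 1.69) were called lower, as were Cd160 (7.39 and 0.563) and Cd8a (1.47 and 0.375), and Itgae was at 123 and 19.5 CPM. Gzmk (2 and 19 reads) and Ncr1 (0 and 10 reads) were called higher. Cd8b1 (log2 ratio of -0.62), Nkg7 (-0.58), Klrd1 (-0.19), Klrb1c (0.21), Klrk1 (0.33) and Gzmb (0.52) were not called. The summed level of the list was 3208 CPM in WT and 4060 in Exon2KO, of which Gzmb, which Treg cells also express, made up 2772 and 3981. Without Gzmb the sum was 436 and 78.7 CPM, a difference mostly of Gzma, and without both it was 108 and 68.4 CPM, both choices made after the values were seen. Of the 14 genes, 0 had no reads in both libraries. The part of such cells in the Itgae ratio was not tested.

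Itgb8 is also known in dendritic cells and epithelium. Of 14 myeloid and mast cell genes, 10 had enough reads, 2 were called lower (Kit and, on 14 and 6 reads, Csf1r) and 0 higher, and the summed level was 70.5 CPM in WT and 72.7 in Exon2KO. Its dendritic cell genes Xcr1 (184 and 185 reads) and Flt3 (16 and 22) were detected in both libraries and not called. Of 14 epithelial genes, 10 were called higher and 0 lower, and the summed level was 99.1 CPM in WT and 499 in Exon2KO. The genes called higher include Car1 (1.53 CPM in WT and 114.5 in Exon2KO), Krt8 (10.2 and 100.3), Krt19 (5.16 and 89.4) and Lgals4 (13.8 and 86.6). The other 4 were not called: Epcam, the largest part of the WT sum, was at 49.8 and 38.1 CPM, and Muc2 (log2 ratio of -0.93), Tff3 (-0.34) and Krt20 (0.18) were at low levels. Of 7 gamma-delta T cell genes, 5 were called higher and 1 lower, with summed levels of 11.2 and 74.3 CPM, of which Tcrg-C1 made up 7.84 and 64.7. The delta chain constant gene Trdc was not called (14 and 13 reads), and Trdv4 was called lower (15 and 1 reads). Of 11 B and plasma cell genes, 10 had enough reads, 1 was called higher and 3 lower (34300 and 28350 CPM), and of 12 stromal genes 10 had enough, with 2 higher and 1 lower (81.8 and 77.3 CPM). In the Treg list of 7 genes 3 were called lower, Ikzf2, Tnfrsf18 and Tnfrsf4, and 1, Foxp3, higher, with summed levels of 15240 and 15620 CPM. These counts stand beside 8.14% called lower and 9.38% higher over all genes compared. The part of these lists in the ratios of the adhesion genes was not tested.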

How the data were processed

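The labels describe 2 libraries made with a column RNA kit and an NEBNext Ultra preparation. HISAT2 2.0.5, StringTie 1.3.3b, featureCounts 1.5.0-p3, DESeq2 1.16.1 and the build mm10 are named in the submitters' processing notes, without their roles. For each gene the authors deposited read counts without normalization, FPKM values, and a log2 fold change with p-values and adjusted p-values of their own. Gene coordinates are as deposited and equal those of GENCODE M21 (GRCm38) for all 9 genes.

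TMM factors (0.964 for WT, 1.04 for Exon2KO) came from edgeR 4.0.16, run in R 4.3.3. Genes whose reads in the 2 libraries summed to at least 10 were compared as log2 ratios with a prior count of 2, and a ratio of at least 2-fold was called. The quasi-likelihood test of edgeR needs replicates and was not run. A binomial test of the reads, which compares these 2 libraries only, and edgeR's exact test with an assumed spread were run as alternatives, with Benjamini-Hochberg adjustment over all genes compared. Intervals of ratios are Clopper-Pearson intervals of the split of reads without the prior count, those of FPKM are exact Poisson intervals, and those of subunit ratios are normal intervals of log counts, all at 95%. They cover counting error only and take each read as independent. Reads with no molecular identifier may be copies of 1 molecule, so the intervals may be too narrow even for counting error. The limit that a count of 0 allows is 3 reads, a share of 1.84e-05% in WT and 1.95e-05% in Exon2KO. Ratios and intervals were tested on simulated data. Python 3.11.15 with numpy 2.4.6, pandas 2.3.3 and scipy 1.17.1 was used.

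The members, the 14 gene lists and the alternatives were chosen with earlier results of these data known. All 9 members are named. From the related lists, genes called with at least 50 reads in 1 library are named, with up to 2 uncalled genes with the most reads. Other genes are named only where they mark a cell type or overlap or neighbour a member, and not all of those are. One gene of the homing list is not reported here and was left out of its counts. Itgad, Cdh1, Has1 and Prdm1 are named outside that rule, after their values were seen.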

Additional observations from a re-analysis of the deposited data

How the results depend on the processing

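Itgae and Itgb8 were the 2 genes called under each other scaling (total counts, DESeq2 1.42.0 size factors, upper quartile, the T cell list, and TMM leaving out immunoglobulin, mitochondrial and haemoglobin genes), under prior counts of 0.5 and 5, and at folds of 1.5 and 3. Adding a binomial test of the reads could not remove either call, because genes of the set well within 2-fold also passed it. Over the scalings and prior counts Itgae lay between -2.65 and -2.35 and Itgb8 between -2.97 and -2.65. With an assumed biological coefficient of variation of 0.4 in edgeR's exact test, 0 of the 9 genes had an adjusted p-value below 0.05, against 2 with 0.2, and 1 library per genotype cannot measure that spread. The median of the 9 genes was -0.20 with total counts, which moved the median of all genes to 0.11, and -0.0037 with the T cell list at 0. Of all called genes, 53.5% were higher with TMM, 60.2% with total counts and 70.7% with the T cell list at 0. A minimum of 50 reads gave 649 genes higher and 685 lower, no minimum 2643 and 2844, and protein-coding genes alone 962 and 934, against 1628 and 1413. Different numbers of genes were compared under these settings and are not given here, so these counts cannot be read as shares. With a minimum of 50 reads and with no minimum, more genes were lower than higher, unlike in the main setting. The subunit ratios are equal by construction when taken from the deposited FPKM values, so that alternative tests nothing. With total counts or the T cell list at 0, Klf2, Cd5 and Csf1r were not called, and with the latter Prdm1 (1.01) and Ctla4 (1.01) were called higher. Depth limits the list genes with few reads, such as Ncr1 and Trdv4, more than the 9 genes. No paired analysis was possible because each genotype has 1 library, and for the same reason no library could be left out.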

Other observations

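The genes around the 2 called genes were looked at after those ratios were seen. Within 250 kb of Itgae, 7 other genes had at least 50 reads in 1 library, and 0 of them were called in either direction, with log2 ratios from -0.39 to 0.38. The most abundant were Emc6, a subunit of a membrane protein insertion complex, with 1135 reads in WT and 1506 in Exon2KO (0.38, 0.27 to 0.49), and Atp2a3, a calcium pump gene, with 981 and 897 (-0.16, -0.29 to -0.02). Within 250 kb of Itgb8 the 1 such gene was the processed pseudogene Gm6768, with 204 and 164 reads (-0.34, -0.65 to -0.04).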
